A study of Mus musculus with 6 samples.

Results

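The genes described here are Stra8 and 8 further genes of retinoic acid signalling: the receptors Rara, Rarb, Rarg, Rxra and Rxrb, the synthesis enzymes Aldh1a1 and Aldh1a2, and the binding protein Crabp1. All probe sets annotated to these symbols alone were taken, which gave 11 of the 22690 probe sets on the array, at least 1 for each of the 9 genes. A probe set is a group of short probes that reports 1 transcript. The 6 arrays (Affymetrix Mouse430A_2) held RNA from testis cells of Stra8-CD4HAglo transgenic mice, in 2 groups of 3: by their titles, spermatogonial stem cells (the sorted arrays below) and total testicular cells (the total cell arrays). All of these mice carried a human CD4 surface protein driven by a truncated Stra8 promoter. The samples of the first group were cells positive for that protein, taken with magnetic beads from pooled testes, 50 males for each preparation. For the total testicular cells the title names the whole cell suspension, whereas the source field names cells negative for CD4. The age of the mice is not given in the labels, and the array headers carry the same sample type text on all 6 arrays.

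Retinoic acid is made from vitamin A: retinol dehydrogenases give retinal, retinal dehydrogenases of the ALDH1A family give retinoic acid, and CYP26 enzymes break it down. Retinoic acid binds nuclear receptors, in which an RAR pairs with an RXR on DNA at repeated half-sites and switches target genes on. In the testis it drives the step from undifferentiated to differentiating spermatogonia and the entry into meiosis, and Stra8 is its best known target in germ cells, transcribed at both steps.

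The promoters of 3 members are shown: those of the gene behind the sort, of a receptor and of the enzyme with the largest difference. The sort depended on a Stra8 promoter, Rarb is a textbook target of its own receptor family, and Aldh1a1 differed most between the groups. Each window runs from 250 bases before to 50 bases after an annotated start site (RefSeq, build GRCm38.p6), 5′ to 3′ on the gene's strand. Capitals mark the half-sites AGGTCA or AGTTCA, and also GGGTCA or GGTTCA, on either strand. The windows are Stra8 at chr6:34920698-34920997 (plus strand), Rarb at chr14:16575427-16575726 (minus strand) and Aldh1a1 at chr19:20601718-20602017 (plus strand). Aldh1a1 has a second annotated start site, whose window at chr19:20492333-20492632 held 0 half-sites and is not shown.
Stra8: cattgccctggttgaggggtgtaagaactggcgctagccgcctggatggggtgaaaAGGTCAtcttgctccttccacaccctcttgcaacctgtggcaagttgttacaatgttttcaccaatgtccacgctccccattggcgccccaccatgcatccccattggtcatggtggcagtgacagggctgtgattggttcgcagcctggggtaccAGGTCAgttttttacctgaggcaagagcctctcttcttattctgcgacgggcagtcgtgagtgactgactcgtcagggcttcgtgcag
Rarb: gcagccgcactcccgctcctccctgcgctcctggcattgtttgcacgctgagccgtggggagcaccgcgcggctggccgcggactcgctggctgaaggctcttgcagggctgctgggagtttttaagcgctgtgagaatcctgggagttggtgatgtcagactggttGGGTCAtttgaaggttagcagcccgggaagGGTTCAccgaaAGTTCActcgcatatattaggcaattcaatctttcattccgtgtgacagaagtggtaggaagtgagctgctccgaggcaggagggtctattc
Aldh1a1: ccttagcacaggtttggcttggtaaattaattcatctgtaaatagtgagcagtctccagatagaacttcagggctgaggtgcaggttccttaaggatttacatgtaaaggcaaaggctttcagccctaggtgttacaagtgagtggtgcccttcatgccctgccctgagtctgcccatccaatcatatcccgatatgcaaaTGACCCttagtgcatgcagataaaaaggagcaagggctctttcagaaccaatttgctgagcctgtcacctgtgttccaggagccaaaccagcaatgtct

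The Stra8 window held AGGTCA at 2 places, beginning 194 and 38 bases before the start site, and no pair of half-sites with 1, 2 or 5 bases between. The sources used here do not say which stretch of the Stra8 promoter the transgene carried. The Rarb window held the direct repeat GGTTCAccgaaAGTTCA, with 5 bases between its half-sites, beginning 53 bases before the start. A direct repeat of this spacing stood in 0.0974% of the 32851 promoter windows of the table, on either strand. A single half-site is common: 43.7% of all windows held at least 1 of the 4 forms, and AGGTCA alone stood in 16.3%. Among the members, 7 of 16 windows held a half-site, about the same share as the 43.7% of all windows. These windows belonged to 6 of the 9 genes, but some genes had several windows and no share over all genes was taken. Rarb alone held a direct repeat with 1, 2 or 5 bases between. A match is a description of the letters and not evidence of binding.

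The values are log2 signals as deposited, and a difference is stem cells minus total testicular cells throughout. Background was set at 2.15, from bacterial control probe sets, and each array had 79.7% to 84.1% of its probe sets above it. Sorted arrays correlated with one another at 0.970 to 0.984 over probe sets and total cell arrays at 0.992 to 0.995. The label "stem cells" was set against markers. Of 12 measured markers of undifferentiated spermatogonia 0 passed at an adjusted p of 0.05 by limma, against 1.77% of 12393 named genes. At an unadjusted p of 0.05, 1 was lower, against 13.1% of named genes. The median difference of the 12 was −0.10. Of these 12, 2 had a mean below background and others, such as Gfra1, Ret and Thy1, lay less than 1 log2 unit above it. Id4, by contrast, lay 5.85 above it on the total cell arrays. Its difference, −0.55, was the lowest of the 12, without overlap of the groups (limma adjusted p = 0.232). The 3 probe sets of Id4 ran from −0.73 to −0.47. Of the 12 differences, 8 were negative and 4 positive. Of 14 macrophage markers (median 4.35) 11 rose at the adjusted threshold, among them Csf1r, C1qa and Lyz2, against 1.63% of named genes. The 8 spermatid markers had a median of −0.14, and 0 of them lay below background. Their levels ran from Acrv1, with means of 9.05 on the sorted and 9.31 on the total cell arrays, up to Prm1. Prm1 read between 12.99 and 13.20 on every array, at the top of the scale, which limits the difference it can show. The comparison is therefore between mixed cell preparations, in which fewer cells of a type and less RNA per cell cannot be told apart. Nothing in the labels says that the total testicular cell samples came from separate animals, so the p-values measure the spread between these samples.

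Of the 11 member probe sets, 0 passed the adjusted threshold in either direction, where limma called 1.55% of all 22626 probe sets (1.4% higher and 0.15% lower). At an unadjusted p of 0.05, 2 were higher and 0 lower, against 11.4% and 12.1% of all probe sets. The groups did not overlap for 3 of the 11, against 30.9% of all probe sets, so that neither share sets the members apart. The median difference of the 11 was 0.01, beside −0.03 over all probe sets. The 2 that were higher were Stra8 and Aldh1a1, and the third without overlap was Aldh1a2, which was lower by a small amount.

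**Figure D1:**
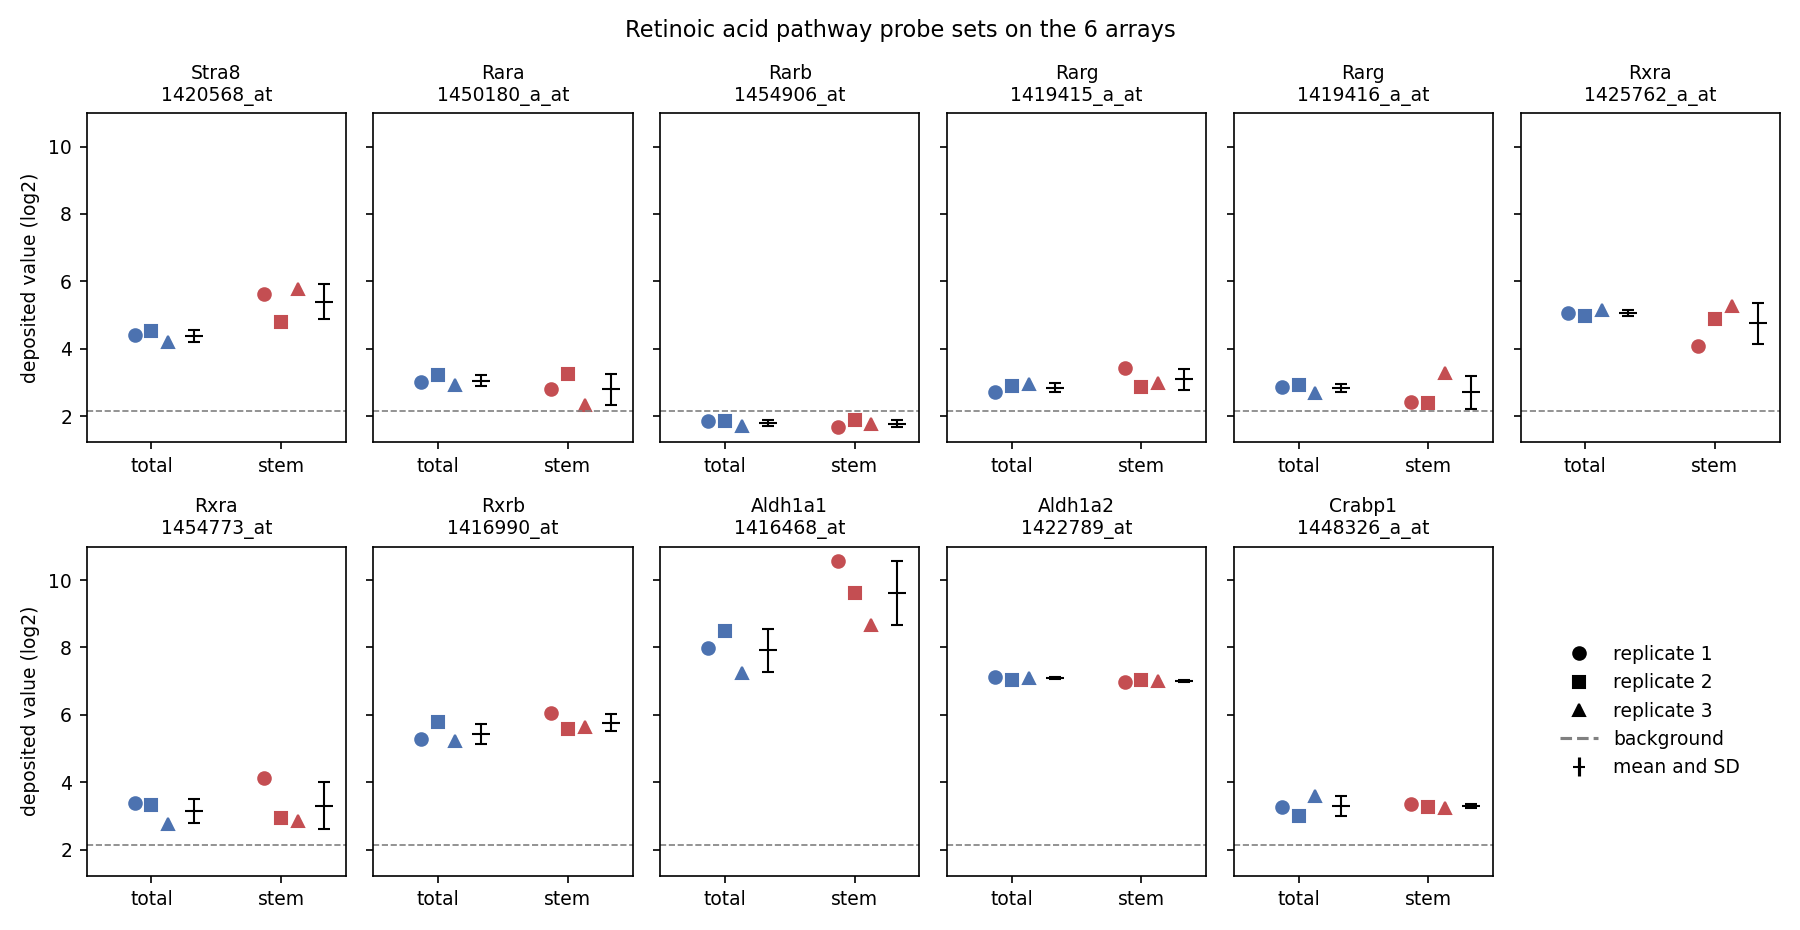
Deposited log2 values of the 11 probe sets on the 3 total cell (blue) and 3 sorted arrays (red, marked stem), with the mean and SD of each group in black and the background of 2.15 as a dashed line. All 3 sorted values lay above all 3 others for Stra8 and Aldh1a1, Aldh1a2 was nearly flat, and Rarb lay under background on every array.

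Stra8 was about 2.01-fold higher in the cells sorted through its own promoter, but missed the threshold. The gene encodes a germ cell protein that retinoic acid induces before meiosis. Its log2 values were 5.61, 4.80 and 5.77 on sorted arrays 1, 2 and 3, and 4.42, 4.54 and 4.20 on the total cell arrays. The groups did not overlap, but sorted array 2 lay only 0.26 above total cell array 2, the highest of the other group. The means were 5.39 ± 0.52 and 4.39 ± 0.17 (SD, n = 3 each), and limma gave a difference of 1.01 ± 0.26 (SE, 95% interval 0.41 to 1.598, adjusted p = 0.0832). Of all probe sets, 95.4% differed by less in size. Since the sorting marker was under a promoter of this gene, its level is not independent of how the cells were chosen.

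The size of the Stra8 difference varied with the arrays compared. The array headers give a hybridization date and time for each of the 6 arrays. Arrays whose times followed one another by less than 15 minutes were grouped here, which gave 3 fluidics rounds. Within round 1 (sorted array 1 against total cell arrays 1 and 3) Stra8 differed by 1.30, and within round 3 (the arrays numbered 2) by 0.26. Sorted array 3 ran alone in round 2. A fit that held the round constant gave 0.85 (limma adjusted p = 0.112). Fluidics module 2, the only module with both groups, held sorted array 2 and total cell array 3, which differed by 0.60. Without sorted array 2 the difference was 1.30 and passed (limma adjusted p = 0.0220). Leaving out any of the other 5 arrays gave 0.82 to 1.08, which did not pass (limma adjusted p from 0.103 to 0.301).

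Genes whose values most resembled those of Stra8 were sought among 10915 named genes above background. By Pearson's r over the 6 arrays they were F11r (r = 0.994), Foxj3 (0.990), Nme4 (0.989), Il4ra (0.988) and Irgm2 (0.988). F11r encodes a junctional adhesion molecule, Foxj3 a forkhead factor, Nme4 a mitochondrial nucleoside diphosphate kinase, Il4ra the interleukin 4 receptor alpha chain and Irgm2 an interferon-inducible GTPase. With 6 arrays in 2 groups and so many genes compared, high values of r are a description only. Since they were picked by r over these same arrays, their likeness to Stra8 across them is not a separate observation. F11r, for example, read 5.08, 4.49 and 5.11 on sorted arrays 1, 2 and 3, against 3.97 to 4.25 on the total cell arrays. None of the 5 passed the adjusted threshold, with limma adjusted p from 0.0692 for Irgm2 to 0.232 for Nme4.

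Among the synthesis enzymes, Aldh1a1 had the largest difference of any member, at 3.25-fold. Aldh1a1 and Aldh1a2 both encode retinal dehydrogenases, which carry out the last step to retinoic acid. Aldh1a1 read 10.55, 9.61 and 8.67 on sorted arrays 1, 2 and 3, and 7.99, 8.50 and 7.25 on total cell arrays 1, 2 and 3. The groups did not overlap, and both spread widely. The means were 9.61 ± 0.94 and 7.91 ± 0.63 (SD, n = 3 each), with a difference of 1.70 ± 0.45 (SE, 95% interval 0.70 to 2.70, limma adjusted p = 0.0832). Of all probe sets, 98.5% differed by less in size.

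Aldh1a1 was higher within each fluidics round that held both groups, by 2.93 in round 1 and 1.11 in round 3, and by 2.36 within module 2. With the round as a block it differed by 2.15 and passed (limma adjusted p = 0.0230). Array weights, which count noisier arrays less, gave 1.56 (limma adjusted p = 0.0467), and leaving out sorted array 3 gave 2.17 (limma adjusted p = 0.0115). It did not pass when any of the other 5 arrays was left out, with differences from 1.23 to 1.99 (limma adjusted p from 0.101 to 0.299).

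Aldh1a2 read 6.97, 7.04 and 7.002 on the sorted arrays and 7.11, 7.05 and 7.10 on the others. The groups did not overlap, though their means, 7.004 ± 0.03 and 7.09 ± 0.04 (SD, n = 3 each), were close. Its difference was −0.08 ± 0.14 (SE, limma adjusted p = 0.750), with a 95% interval from −0.40 to 0.23. Quantile normalization turned it to 0.01, so no direction can be read. The interval lies wholly under that of Aldh1a1; the difference between the genes was not tested.

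Crabp1, which encodes a cytoplasmic protein that binds retinoic acid, did not differ detectably. It read 3.36, 3.27 and 3.25 on the sorted arrays and 3.26, 3.01 and 3.59 on the others, so the groups overlapped. The difference was 0.01 ± 0.19 (SE, 95% interval −0.42 to 0.43, limma adjusted p = 0.985), and it changed sign with quantile normalization or median centring (−0.10 in each).

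The 5 receptor genes had 7 probe sets, all with overlapping groups, and limma called 0 of them at an adjusted or an unadjusted p of 0.05. Rara, the main RAR of Sertoli cells and of some germ cells, read 2.80, 3.26 and 2.34 on the sorted arrays and 3.02, 3.23 and 2.93 on the others (difference −0.26, 95% interval −0.77 to 0.26). Sorted array 3 was low and array 2 lay at the top of the total cell range. Rarg, the receptor of spermatogonia, had 2 probe sets that differed in sign. Probe set 1419415_a_at read 3.43, 2.85 and 2.99 against 2.71, 2.88 and 2.95 (difference 0.24, limma adjusted p = 0.455). Probe set 1419416_a_at read 2.43, 2.40 and 3.28 against 2.87, 2.92 and 2.69 (difference −0.13, limma adjusted p = 0.784). Different sorted arrays were high on each, array 1 on the first and array 3 on the second. Rarb read 1.67 to 1.88 on the sorted arrays and 1.71 to 1.86 on the others. All 6 values lay under background, so a change in Rarb could not be seen.

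Rxra and Rxrb encode the partners with which RARs bind DNA. Rxra was also split between its probe sets. Probe set 1425762_a_at read 4.09, 4.90 and 5.28 on sorted arrays 1, 2 and 3 against 5.07, 4.96 and 5.15 (difference −0.31, 95% interval −0.94 to 0.33). Probe set 1454773_at read 4.11, 2.93 and 2.86 against 3.39, 3.32 and 2.75 (difference 0.15, 95% interval −0.61 to 0.90). Sorted array 1 was the lowest of all 6 arrays on the first and the highest on the second, so the sign at Rxra rests on the probe set read. Without that array the first differed by 0.03 and the second by −0.26. Rxrb read 6.05, 5.59 and 5.64 against 5.29, 5.78 and 5.22, a difference of 0.33 ± 0.21 (SE, limma adjusted p = 0.377). Its groups overlapped at total cell array 2, and it differed by 0.79 within round 1 and by −0.19 within round 3.

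**Figure D2:**
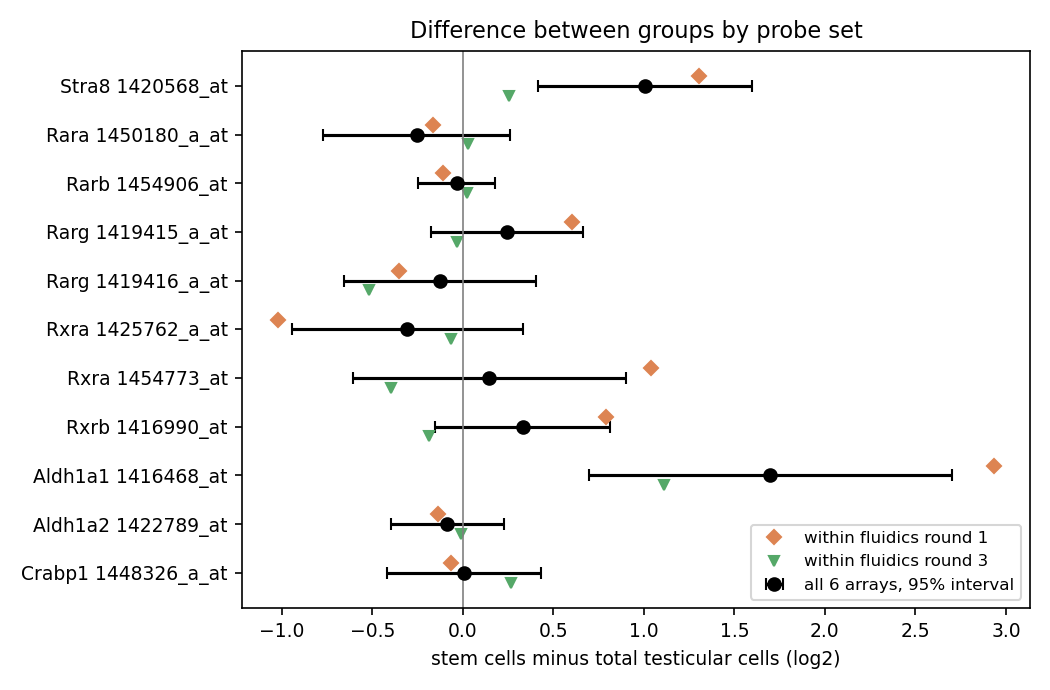
Differences between groups for the 11 probe sets on the log2 scale (black, limma 95% interval over all 6 arrays), with the differences within fluidics round 1 (diamonds) and round 3 (triangles). Only Stra8 and Aldh1a1 have intervals clear of 0 before adjustment over all probe sets, at 1.01 and 1.70, and for Stra8 round 3 gave 0.26.

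Beyond the members, 63 of 75 listed genes of retinoid handling and response had a probe set of their own, and 0 passed the adjusted threshold, where limma called 1.77% of 12393 named genes (1.63% higher and 0.137% lower). At an unadjusted p of 0.05, 11 were higher and 11 lower, against 11.8% and 13.1% of named genes. The groups did not overlap for 9 higher and 13 lower genes, against 13.8% and 19.2% of named genes and 32.9% in either direction. The median difference was −0.02, beside −0.05 over all named genes. Single genes of the list nevertheless came close to the threshold, and those of the dehydrogenases lay on both sides of 0.

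Of 15 measured retinol and retinal dehydrogenases and reductases, 4 lay higher and 6 lower without overlap of the groups, where 13.8% and 19.2% of all named genes did. By limma 0 passed at the adjusted threshold, against 1.77% of named genes. At an unadjusted p of 0.05, 4 were higher and 5 lower, against 11.8% and 13.1% of named genes. Of the 15, 4 had a mean below background. One of these, Rdh1, is in both lower counts though it lay above background on 0 of 6 arrays. Adh1, a cytosolic alcohol dehydrogenase that oxidises retinol, read 6.11, 5.41 and 4.78 on the sorted arrays and 3.89, 4.18 and 3.73 on the others (difference 1.499 ± 0.31 SE, limma adjusted p = 0.0513). Adh5, which also handles formaldehyde bound to glutathione, differed by 1.31 (limma adjusted p = 0.0752). Dhrs3, a reductase that turns retinal back to retinol and is itself induced by retinoic acid, differed by 1.26 (limma adjusted p = 0.104). These 3 were highest on sorted array 1. Adh7, a retinol-oxidising alcohol dehydrogenase, lay on the other side, with 3.58, 4.25 and 4.13 on the sorted arrays and 5.002, 4.66 and 5.005 on the others (difference −0.90 ± 0.22 SE, limma adjusted p = 0.0757). Its other probe set gave −0.23. Rdh11, a retinal reductase, differed by −0.65 (limma adjusted p = 0.0849), with −0.62 from a further probe set, Dhrs4 by −0.56 and Adh4 by −0.52. Rdh10, the main retinol dehydrogenase of the embryo, was near background and differed by 0.35 (limma adjusted p = 0.160).

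Among the other aldehyde dehydrogenases, Aldh1a7 read 7.97, 6.91 and 5.84 on sorted arrays 1, 2 and 3 and 5.29, 5.76 and 4.56 on the others (difference 1.70 ± 0.49 SE, limma adjusted p = 0.100). It is a close copy of Aldh1a1, and whether each probe set reads its own gene only is uncertain. Aldh8a1, which acts on 9-cis-retinal, differed by −0.70 (limma adjusted p = 0.0775), though its other probe set gave 0.03. Aldh1a3, the third enzyme of the ALDH1A family, differed by 0.08. Of the CYP26 enzymes only Cyp26a1 had a probe set of its own, at −0.06 (limma adjusted p = 0.844). Its mean lay only 0.38 above background on the total cell arrays and 0.32 on the sorted arrays, which limits what it can show.

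The 9 measured genes of retinoid uptake, transport and binding had a median difference of 0.07, and 2 of them lay below background. Fabp5, a fatty acid binding protein that can also carry retinoic acid, differed by 0.49 with overlapping groups (limma adjusted p = 0.303). Stra6, the retinol receptor, differed by −0.13 and Crabp2, the second retinoic acid binding protein, by −0.16. Crabp2 was 1 of the 2 below background, and Stra6 lay only 0.40 above it on the total cell arrays and 0.27 on the sorted arrays. Lpl, a lipase that releases fatty acids and retinyl esters from blood lipoproteins, read 6.89, 5.20 and 4.05 against 2.56 to 2.86 (difference 2.67 ± 0.57 SE, limma adjusted p = 0.0553), with 0.40 on its other probe set. Among 6 storage genes, Ces1d, a carboxylesterase, differed by 1.04 (limma adjusted p = 0.143) and Dgat1, an acyltransferase, by −0.51 (limma adjusted p = 0.192). Lrat, which esterifies retinol, lay above background on 1 of 6 arrays.

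Among 10 coregulators of nuclear receptors, 1 lay higher and 4 lower without overlap, where 13.8% and 19.2% of all named genes did. Tbl1x and Tbl1xr1, related subunits of the corepressor complex, differed in opposite directions, by 1.21 (limma adjusted p = 0.0755) and −0.60 (limma adjusted p = 0.108). Their probe sets gave a range of differences, from 0.28 to 1.21 for Tbl1x and from −0.60 to 0.31 for Tbl1xr1. Rxrg, the remaining RXR, differed by −0.31 (limma adjusted p = 0.319). Of 18 measured genes known to respond to retinoic acid, 6 lay below background, and the median difference over the 18 was 0.10, beside −0.05 over all named genes. Egr1, an immediate early factor with many other inducers, had the largest at 1.77 (limma adjusted p = 0.136) and Gata6 the lowest at −0.71 (limma adjusted p = 0.0888). Egr1 read 8.35, 6.66 and 5.66 on the sorted arrays against 4.30 to 5.73, so its groups overlapped. Those of Gata6 did not. Rec8, a meiotic cohesin that retinoic acid induces together with Stra8, read 5.07, 5.96 and 5.69 against 6.09 to 6.37, a difference of −0.65 (limma adjusted p = 0.151) opposite in sign to that of Stra8. Kit, the receptor that appears as spermatogonia differentiate, differed by 0.16 (limma adjusted p = 0.617), with 0.70 on its other probe set. Among 11 measured markers of meiotic entry and prophase, limma called 0 at the adjusted threshold, against 1.77% of named genes. At an unadjusted p of 0.05, 1 was higher and 3 lower, against 11.8% and 13.1% of named genes. The median difference of the 11 was −0.19, with 4 positive and 7 negative. Spo11, which makes the meiotic DNA breaks, differed by −0.63, Msh4 by −0.61, Mlh3 by −0.42 and Msh5 by −0.21, whereas Dmc1 differed by 0.46, Dazl by 0.45 and Sycp3 by 0.02.

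**Figure D3:**
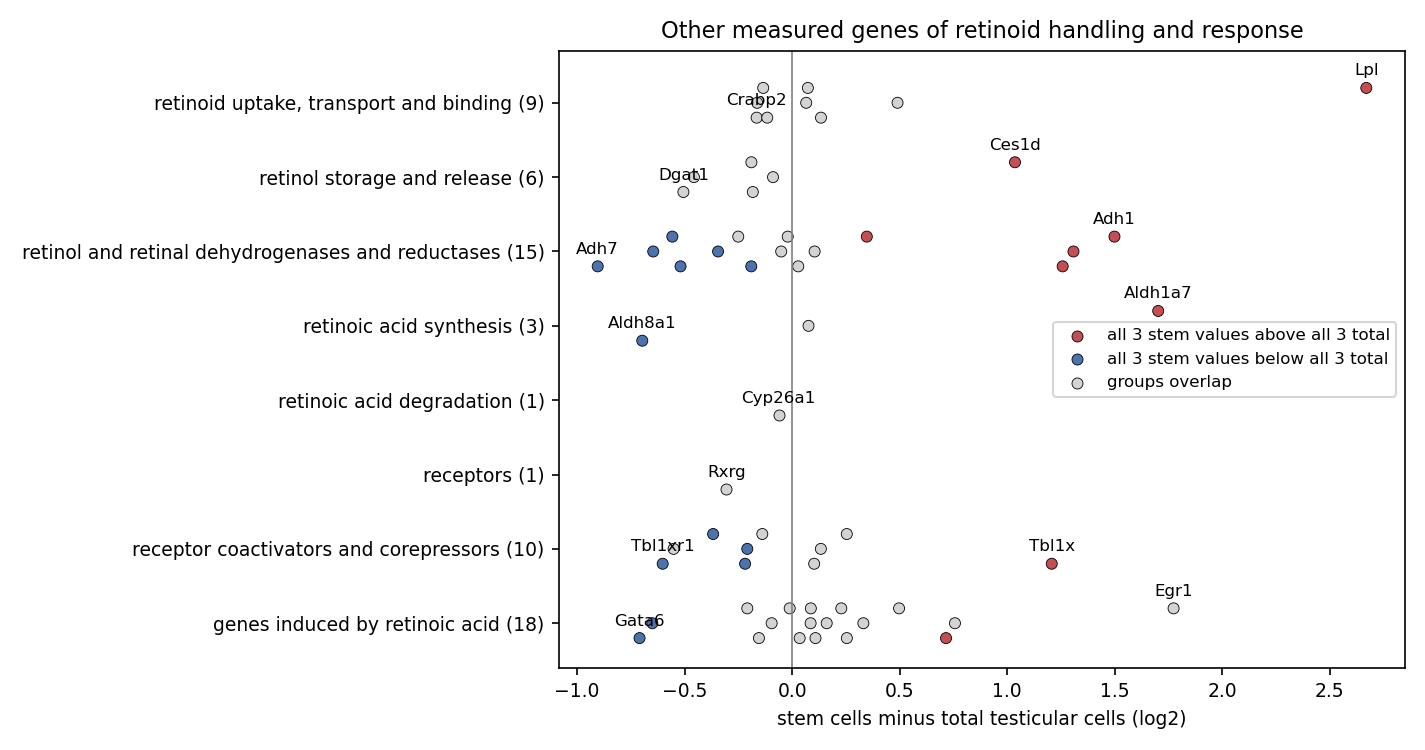
Differences between groups (log2) for the 63 measured pathway genes that are not members, by role, with the number of genes in brackets. Red and blue points are genes whose groups do not overlap (9 higher and 13 lower); the genes with the largest difference each way are named, from Lpl at 2.67 to Adh7 at −0.90, and 0 passed the adjusted threshold.

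The sorted arrays did not carry these differences equally. Sorted array 1 also had the highest mean of the hybridization control probe sets, 8.96 against 8.37 to 8.51 on the other arrays. Its median over probe sets was the highest too, 3.44 against 3.25 to 3.36. The part of this in the differences was not tested. Taken against the average total cell value, Aldh1a1 lay higher by 2.64, 1.70 and 0.76 on sorted arrays 1, 2 and 3, Aldh1a7 by 2.77, 1.71 and 0.63 and Adh1 by 2.18, 1.47 and 0.85. Stra8 had another order, at 1.23, 0.41 and 1.38. All 6 measured markers of Leydig cells, which make testosterone, had positive differences. By limma 0 passed at the adjusted threshold, where 1.63% of named genes were called higher. At an unadjusted p of 0.05 all 6 were higher, against 11.8% of named genes. The median of the 6 lay higher by 2.82, 1.70 and 0.56 on the same arrays. Cyp17a1, one of them, lay higher by 2.91, 1.89 and 0.97. Averaged over the 6 Leydig markers the log2 level was 6.06 to 7.997 on the sorted arrays and 4.90 to 5.79 on the others, and 0 of the 6 lay under background. On the total cell arrays too, Aldh1a1 and this average were both highest on array 2 and lowest on array 3. The order is not particular to Leydig cells: the macrophage marker average read 3.91, 4.33 and 3.83 on total cell arrays 1, 2 and 3. The part of Leydig cells or of macrophages in the Aldh1a1 difference was not tested.

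The macrophage median lay higher by 5.51, 3.92 and 3.52 on sorted arrays 1, 2 and 3, with averages over the 14 markers of 6.79 to 8.59 against 3.83 to 4.33. The Sertoli cell median was higher by 0.20, 0.33 and 0.27. At the adjusted threshold 1 of 14 markers rose, against 1.63% of named genes. It was Clu, by 2.02 (limma adjusted p = 0.0234). Medians for undifferentiated spermatogonia were −0.24, −0.01 and −0.05 and for differentiating spermatogonia 0.19, −0.06 and 0.11. Of the 7 measured markers of differentiating spermatogonia 0 passed by limma, against 1.77% of named genes. At an unadjusted p of 0.05, 1 was lower, against 13.1% of named genes. The part of any of these cell types in the Stra8 difference was not tested.

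**Figure D4:**
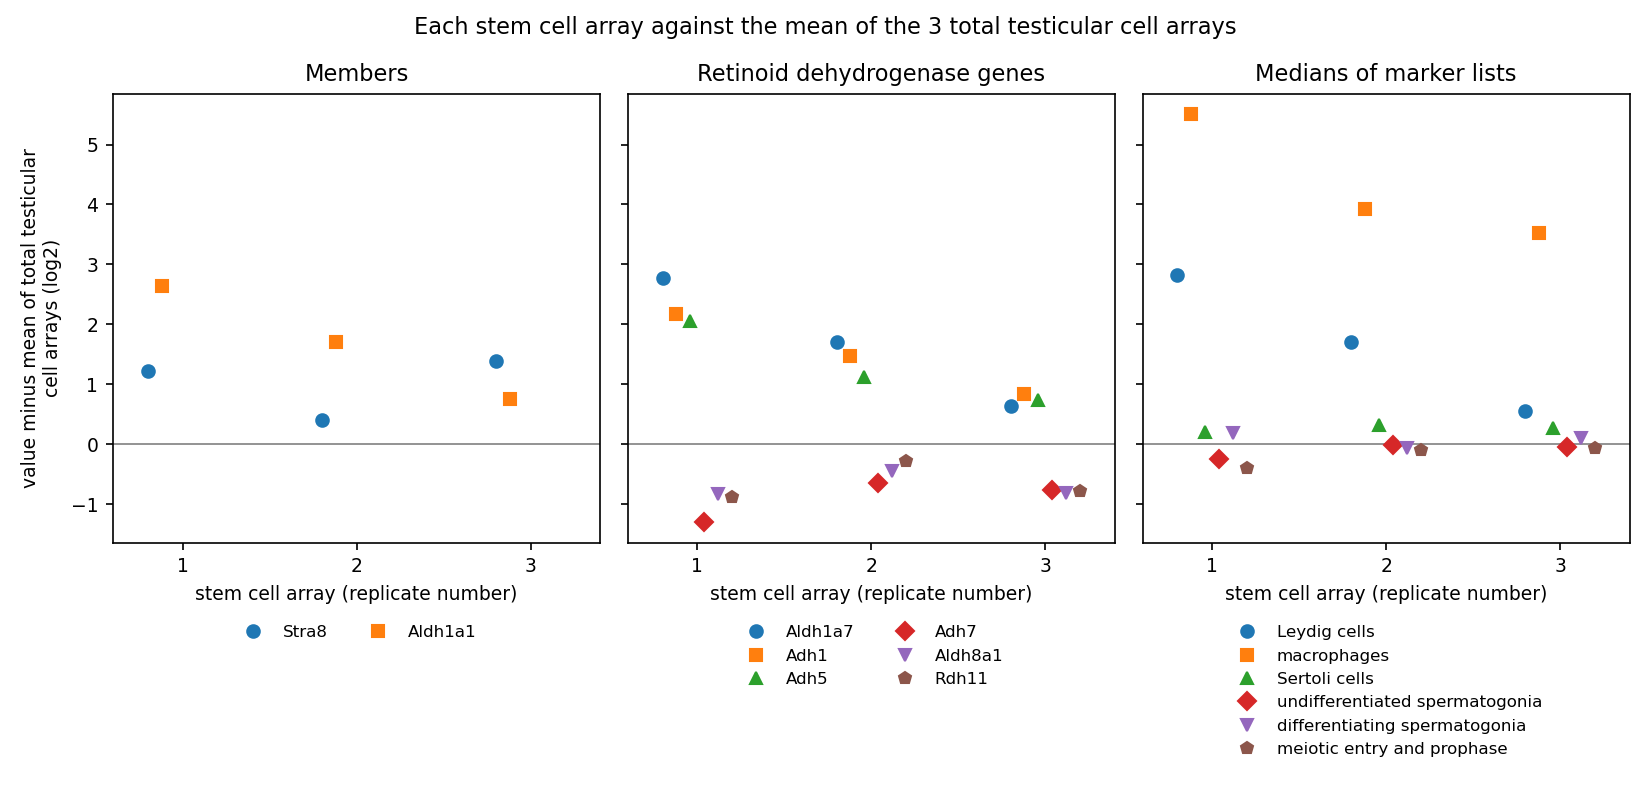
Value on each sorted array minus the mean of the 3 total cell arrays (log2), for Stra8 and Aldh1a1 (left), 6 dehydrogenase genes (middle) and medians of marker lists (right). Aldh1a1, Aldh1a7, Adh1, Adh5 and the Leydig and macrophage medians were highest on array 1 and lowest on array 3, while Stra8 was lowest on array 2, at 0.41.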

How the data were processed

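The authors deposited log2 values for 22690 probe sets on 6 arrays, made with MAS5 and RMA per the submitters' processing notes; the role of each tool and the scaling are not stated there. The log2 scale was read from the values, which run from 1.20 to 13.20. Groups and replicate numbers came from the titles. After 64 control probe sets were set aside, 22626 were fitted with limma 3.58.1 in R 4.3.3 (lmFit, eBayes with an intensity trend, two-sided, Benjamini-Hochberg over all probe sets, threshold 0.05). Background was the 95th percentile of the means of 27 bacterial control probe sets. The number of arrays limits the precision.

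A list gene was read from its probe set with the highest mean. Of the tested probe sets, 20380 name 1 gene, 691 several and 1555 none; none was named from several. Promoters came from RefSeq (GRCm38.p6), with a window for all 9 members.

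All members were named, with the pathway genes of largest difference each way in a role, the 5 genes most like Stra8, and marker genes past the threshold or of largest difference; Adh5, Dhrs3, Rdh10, Rdh11, Dhrs4, Adh4, Aldh1a3, Stra6, Lrat, Fabp5, Rec8, Kit, Msh4, Mlh3, Msh5, Dmc1, Dazl, Sycp3, Spo11, Prm1 and Cyp17a1 were added after their values were seen. Members and lists were chosen with earlier results of these data known. Alternatives were quantile normalization, median centring, replicate and fluidics round blocks, array weights, no trend, a stricter threshold and each array left out. The fit was tested on simulated data. The fluidics module as a block was chosen after seeing the data.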

Additional observations from a re-analysis of the deposited data

How the results depend on the processing

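Of the 11 member probe sets, Stra8, Rxrb and Aldh1a1 kept a positive difference under every alternative run; Rarg (1419415_a_at) stayed positive and Rara negative under all but the fluidics module block. With 1 array left out, Stra8 ranged from 0.82 to 1.30 and Aldh1a1 from 1.23 to 2.17. The module block compares 1 sorted with 1 total cell array, so its lack of calls says nothing about stability. The numbers of the replicates do not pair the samples by any label, and deviations of same-numbered arrays correlated at −0.01, 0.01 and 0.30, with 1 of 3 pairs best matched to its own number. With the replicate block, Stra8 differed by 1.01 (limma adjusted p = 0.0555) and Aldh1a1 by 1.70 (limma adjusted p = 0.00278), so that 1 member was called; 1 was also called with the fluidics round block and with array weights, and 0 to 1 with 1 array left out. Pathway genes called, 0 either way at first, came to 7 higher and 1 lower with the replicate block, 6 higher with the round block, 4 higher and 1 lower with array weights and 2 higher with median centring; with 1 array left out they ran from 0 to 7 higher and 0 to 6 lower. Lpl and Adh1 were called in each of those 4 settings and also without sorted array 1 and without sorted array 3, but not without sorted array 2 or any 1 of the total cell arrays. The module block was added after seeing the data.

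Over all probe sets, 316 were higher and 34 lower. The counts were 1065 and 196 with the replicate block, 1200 and 84 with the round block, 0 and 0 with the module block, 119 and 6 without the trend, 853 and 148 with array weights, 53 and 0 at a threshold of 0.01, 363 and 91 with median centring, and 36 to 1365 and 0 to 943 with 1 array left out. Median centring moved the median difference of all probe sets by −0.11.

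Small differences changed sign. Median centring moved every difference by −0.11, a larger amount than the 0.01 by which Crabp1 differed at first. For the other settings the cause was not tested. Crabp1 gave −0.10 with quantile normalization, −0.10 with median centring, −0.00019 with array weights and −0.32 with the module block. Aldh1a2 gave 0.013 with quantile normalization, and Rxra (1454773_at) −0.050 with array weights. With the module block, Rara gave 0.33, Rarb 0.17 and Rarg (1419415_a_at) −0.10. With 1 array left out, Rarb ranged from −0.084 to 0.019, Rarg (1419416_a_at) from −0.41 to 0.025, Rxra (1425762_a_at) from −0.57 to 0.027, Rxra (1454773_at) from −0.26 to 0.37 and Crabp1 from −0.13 to 0.16. Signal over background limits Rarb, which lay under it, and Rara and Rarg, whose group means lay within about 1 log2 unit of it.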
